A study of Homo sapiens with 6 samples.

Results

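The myogenic regulatory factors MYOD1, MYOG, MYF5 and MYF6, the paired box factors PAX3 and PAX7 and the MEF2 factors MEF2A, MEF2C and MEF2D were examined in rhabdomyosarcoma cells after knockdown of TAK1. The 9 genes were chosen by symbol among the 58735 rows of the counts, and each symbol matched a single row. RD is an established embryonal rhabdomyosarcoma (ERMS) cell line. The cells were transduced with lentivirus carrying either scrambled shRNA (control, n = 3) or TAK1 shRNA (n = 3), so that both groups carry an shRNA vector and differ in its target. The knockdown samples carry 1 of the 2 TAK1 shRNA sequences the study designed, in 1 cell line, so an effect of TAK1 loss and an effect of that shRNA cannot be told apart. Poly(A)-enriched RNA was sequenced. Neither the labels nor the methods say whether the replicates of a group came from separate transductions, so p-values measure the spread between these samples only.

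The 4 myogenic regulatory factors are basic helix-loop-helix proteins that bind the E-box, a short DNA motif, together with a partner called an E protein, and switch on skeletal muscle genes. MYF5 and MYOD1 act early and commit cells to the muscle lineage, MYOG drives terminal differentiation, and MYF6 acts mainly in late differentiation. MEF2 factors bind an AT-rich motif beside many E-boxes and raise the output of the same genes, while PAX3 and PAX7 mark and maintain muscle progenitors. Rhabdomyosarcoma cells are known to express several of these factors and yet to keep dividing.

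Total counts per sample ran from 28839898 to 34469323. MAP3K7, which encodes TAK1, stood at 77.3 ± 0.743 CPM (SD, n = 3; CPM are counts scaled to a common library size, per 1e6) in controls and was lower in all 3 knockdown samples, at 31.3 ± 2.00 CPM, which is -1.30 on the log2 scale. All 11 markers fixed for the myogenic lineage exceeded 1 CPM, and so did all 3 markers of ERMS, whereas 3 of the 4 markers of fusion-positive rhabdomyosarcoma had 0 counts in every sample. The summed level of the 5 immune markers stayed between 0.171 and 0.453 CPM. Of the 7 smooth muscle markers, TAGLN alone passed the test, rising from 2.00 to 3.39 CPM. The 7 epithelial markers summed to between 56.9 and 63.0 CPM in the controls and to between 27.7 and 31.2 CPM in knockdown cells, most of it from KRT18, with CDH1 and KRT19 at 0 counts; the part of both lists in the results below was not tested.

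The stretches before the start sites of MYOG, MYF6 and MYF5 are shown because these genes gave such different read counts in the same cells and because MYOG is a textbook target of MYOD1 and MEF2. A RefSeq promoter window (GRCh38.p14) was held for 8 of the 9 genes, all but MYOD1. Each line gives the 250 bases before the start, 5′ to 3′, with E-boxes (CANNTG) and the core of MEF2 motifs in capitals.
MYOG: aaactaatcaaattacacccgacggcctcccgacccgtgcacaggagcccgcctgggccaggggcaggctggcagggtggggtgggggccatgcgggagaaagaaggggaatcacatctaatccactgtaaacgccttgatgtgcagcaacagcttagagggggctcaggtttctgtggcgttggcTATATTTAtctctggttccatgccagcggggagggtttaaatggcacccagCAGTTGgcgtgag
MYF6: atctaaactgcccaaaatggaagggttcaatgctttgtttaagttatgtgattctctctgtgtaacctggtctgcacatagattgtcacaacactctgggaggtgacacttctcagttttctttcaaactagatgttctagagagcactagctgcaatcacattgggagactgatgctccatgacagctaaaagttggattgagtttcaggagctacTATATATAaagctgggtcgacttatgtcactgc
MYF5: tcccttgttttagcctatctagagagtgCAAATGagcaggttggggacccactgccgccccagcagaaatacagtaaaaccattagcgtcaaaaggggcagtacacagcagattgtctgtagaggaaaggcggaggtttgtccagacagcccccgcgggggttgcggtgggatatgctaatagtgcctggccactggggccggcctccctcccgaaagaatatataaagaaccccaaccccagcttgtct

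The MYOG stretch lies at chr1:203086013-203086262 on the minus strand, that of MYF6 at chr12:80707384-80707633 and that of MYF5 at chr12:80716662-80716911, the latter pair on the plus strand. In MYOG, a MEF2 motif lay 65 to 56 bases before the start and an E-box 13 to 8 bases before it. In MYF6 there was no E-box, and a MEF2 motif lay 34 to 25 bases before the start, where an AT-rich run can equally be a TATA box. In MYF5 the single E-box lay 222 to 217 bases before the start, and no MEF2 motif was found. Among 35116 windows of this length, 61.8% held the E-box motif and 7.75% the MEF2 motif, searched on both strands by its consensus core with free outer letters. The narrower E-box CAGCTG, a subset of CANNTG, was in 14.0% of windows and in none of these 3, and CATTCC, the TEAD motif on either strand, was in 11.9% and likewise in none of these. The windows of PAX3 and PAX7 held none of the 4 motifs searched. These matches describe the letters only.

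Within the family of myogenic regulatory factors, RD cells expressed MYOD1 and MYOG and gave next to no reads for MYF5 and MYF6. Both expressed factors were upregulated in TAK1 knockdown cells, MYOD1 by 1.29-fold and MYOG by 1.20-fold. PAX7 gave slightly higher values in knockdown cells and missed the threshold, while PAX3 and all 3 MEF2 factors gave no difference that passed the test. Counts were compared with edgeR's quasi-likelihood test after scaling by the trimmed mean of M-values (TMM), and a gene was called at a Benjamini-Hochberg adjusted p under 0.05, over all 15935 genes tested, with a log2 fold change of 0.25 or more in either direction. Of the 9 genes, 7 had enough counts to be tested, 2 were upregulated and 0 were downregulated, where 11.8% of all genes tested were upregulated and 11.3% were downregulated. Upward calls made up 51.0% of all calls with TMM and from 46.1%, with DESeq2, to 62.9%, with scaling by library size alone, under the alternatives tried. With unadjusted p-values under 0.05, 3 of the 7 genes passed edgeR's test, all 3 of them higher in knockdown cells. The share of all genes passing at that cut is not given here, so this count is a description. Even at an adjusted p under 0.05, 2569 of the 15935 genes were upregulated and 2734 downregulated with no fold threshold. As with edgeR, DESeq2 and limma with voom called no member downregulated. Of all genes, DESeq2 called 1763 downregulated and limma with voom 1806, so with 7 genes tested this is a description. In a bulk RNA sample, a change in the number of cells expressing a gene and a change in its RNA per cell cannot be told apart.

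**Figure D1:**
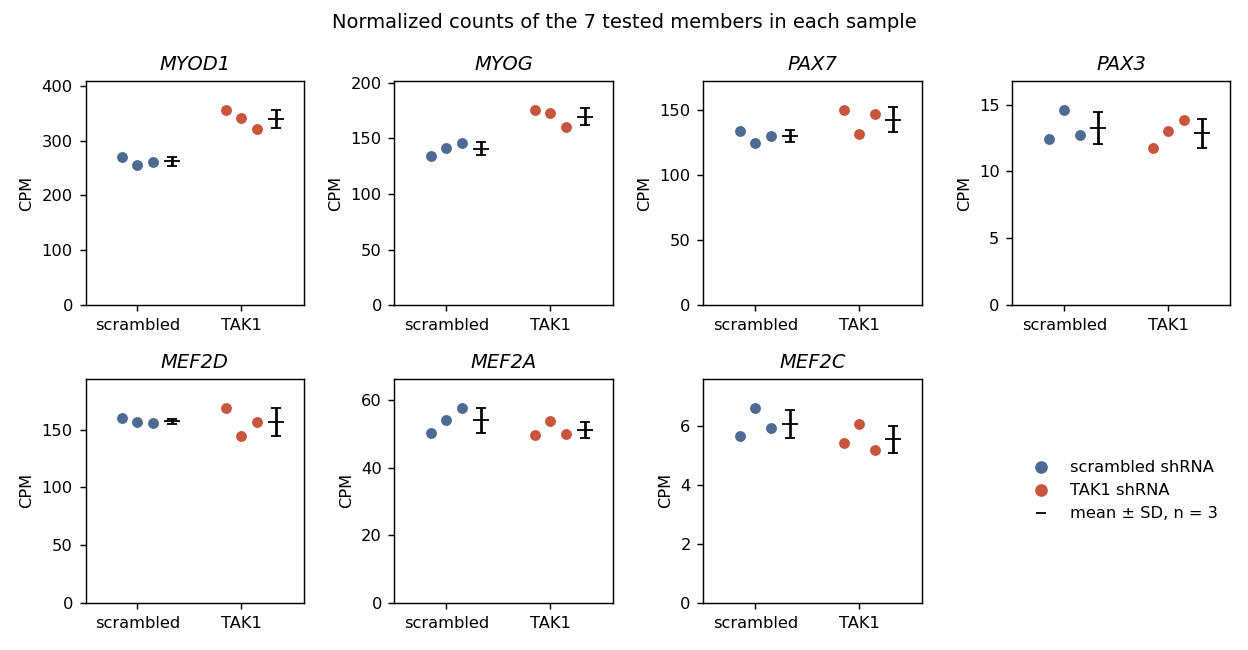
Each panel plots the normalized count of 1 gene in CPM (linear axis from 0) for the 3 scrambled shRNA and the 3 TAK1 shRNA samples, with the mean ± SD beside the points. The groups are apart for MYOD1 and MYOG, where the lowest knockdown samples reach 322 and 161 CPM, and overlap for the other 5 genes.

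MYOD1 (ENSG00000129152.4) lies on chromosome 11 from 17719571 to 17722136 in GRCh38 and encodes the factor that can convert other cell types to muscle. Its levels were 271, 255 and 262 CPM in the 3 control samples and 355, 340 and 322 CPM in the 3 knockdown samples. Every knockdown sample lay above every control, which also held for 1 other of the 7 tested genes and, in either direction, for 43.9% of all genes tested. The means were 263 ± 8.03 and 339 ± 16.7 CPM (SD, n = 3 in each group). On the log2 scale the increase was 0.37 (SE 0.047, 95% interval 0.27 to 0.47), and edgeR's quasi-likelihood test gave an adjusted p of 8.15e-07. The lower end of this interval, unlike that of MYOG, lay above the fold threshold. Ranked over all genes tested, 85.6% had a lower log2 fold change than MYOD1, so many genes responded more strongly.

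MYOG (ENSG00000122180.5) is found at 203083129 to 203086012 of chromosome 1, minus strand, and encodes myogenin. It was measured at 134, 142 and 146 CPM in the controls and at 175, 173 and 161 CPM in knockdown cells. The groups did not overlap, but the gap between the highest control and the lowest knockdown sample was narrower than for MYOD1. The log2 increase of the mean was 0.27 (SE 0.050, 95% interval 0.17 to 0.37), with an adjusted p of 0.000153 in edgeR's quasi-likelihood test. Without replicate 1 of the controls, or without replicate 1 of the knockdown samples, the log2 fold change was 0.24 and lay under the fold threshold. The adjusted p stayed at or under 0.00284 in all 14 alternative fits. DESeq2 gave a log2 fold change of 0.26 and limma with voom 0.27.

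The change of MYOG was set against that of MYOD1 within each sample, a comparison that does not depend on how the samples are scaled. Divided by exon length, the level of MYOG was 0.593, 0.665 and 0.669 times that of MYOD1 in the controls and 0.591, 0.607 and 0.597 times in the knockdown samples. The knockdown ratios fell together near the lowest of the control ratios. The difference of the log2 ratio was -0.10 with an exact two-sided permutation p of 0.3 (adjusted p = 0.8 over the 4 pairs of genes compared), where 0.1 is the smallest p that 3 against 3 samples allow. MYOD1 made up 60.9% of their summed level per length in controls and 62.6% in knockdown cells.

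MYF5 and MYF6 are neighbours on chromosome 12, with 7437 bases between the end of MYF6 (80707634 to 80709474) and the start of MYF5 (80716912 to 80719671). MYF5 had 0 counts in all 6 samples. MYF6 had 1 count in replicate 2 of the controls, 1 in replicate 2 of the knockdown samples and 0 in the other 4. A floor of 3 counts per library corresponds to between 0.0849 and 0.106 CPM, so levels above this would have been seen in any sample, and counting error is all that this floor covers. Neither gene passed the filter on low counts in the controls or after knockdown, and no fold change is given.

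PAX7 (ENSG00000009709.12), on chromosome 1 from 18630846 to 18748866, encodes the paired box factor of muscle stem cells. Its levels were 134, 125 and 130 CPM in the controls and 150, 132 and 147 CPM in the knockdown samples. Replicates 1 and 3 of the knockdown samples lay above all controls, and replicate 2 lay within their range. The means were 130 ± 4.56 and 143 ± 9.83 CPM (SD, n = 3), with a log2 fold change of 0.14, a standard error of 0.053 and a 95% interval from 0.027 to 0.25. The unadjusted p was 0.0168 by edgeR's quasi-likelihood test and the adjusted p 0.0504, and the fold lay under the threshold in any case. Over the 14 alternative fits the adjusted p ran from 0.00578, without replicate 2 of the knockdown samples, to 0.241, without replicate 2 of the controls, and 5 of these fits gave an adjusted p under 0.05.

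PAX3 (ENSG00000135903.20), at 222199887 to 222298998 on chromosome 2 (minus strand), marks embryonic muscle progenitors and is a fusion partner in alveolar rhabdomyosarcoma. It reached 12.4, 14.6 and 12.7 CPM in controls and 11.7, 13.0 and 13.9 CPM in knockdown cells, so the groups overlapped over most of their range. The log2 fold change was -0.041 with a 95% interval from -0.25 to 0.16 (edgeR quasi-likelihood, adjusted p = 0.796). Scaling by library size alone turned this small value positive, at 0.0067. Per exon length, PAX7 lay 13.3, 10.5 and 12.5 times above PAX3 in the controls and 15.7, 12.4 and 13.0 times above it in the knockdown samples. With the longest transcript as the length, the mean log2 ratio in controls was 2.41 in place of 3.59. The ratio was not shown to differ between the groups (exact two-sided permutation p = 0.5, adjusted p = 0.8). Counts cannot separate wild-type PAX3 from a fusion transcript, and the markers of fusion-positive tumours given above were at or near 0.

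**Figure D2:**
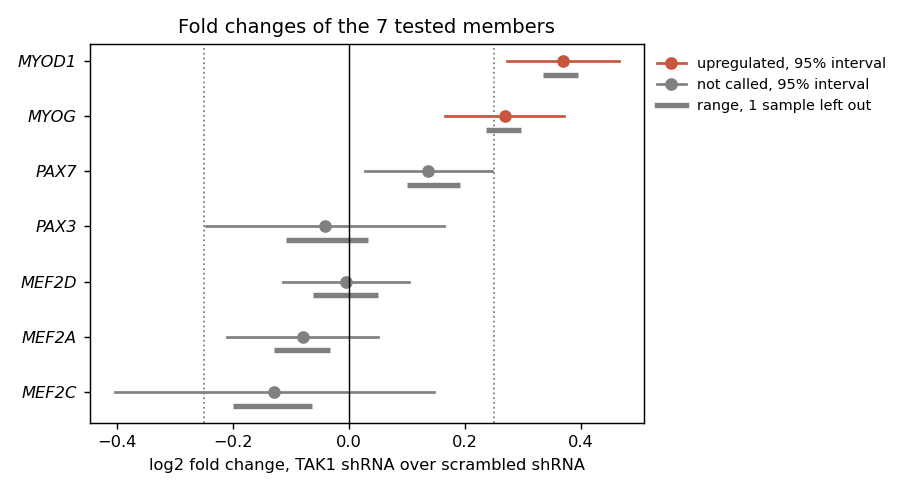
Points give the log2 fold change of TAK1 shRNA over scrambled shRNA with 95% intervals from edgeR's quasi-likelihood fit, thick bars the range when each sample in turn is left out, and dotted lines the fold threshold of 0.25. MYOD1 alone has an interval above the threshold, and the interval of MEF2C, the gene with the lowest counts, is the widest at -0.40 to 0.15.

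For the 3 MEF2 genes no difference between the groups passed the test. MEF2D (ENSG00000116604.19), at 156463727 to 156500779 on chromosome 1 (minus strand), has a muscle splice form that takes part in differentiation, which gene counts do not resolve. Its levels were 160, 156 and 155 CPM in controls and 169, 144 and 157 CPM in knockdown cells. Knockdown replicates spread further than the controls and lay on both sides of them. The means were 157 ± 2.36 and 157 ± 12.2 CPM (SD, n = 3). The log2 fold change was -0.0054, its 95% interval ran from -0.11 to 0.10 (edgeR quasi-likelihood, adjusted p = 0.951), and its sign turned under upper-quartile normalization (0.012) and library size alone (0.043).

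MEF2A (ENSG00000068305.19), on chromosome 15 from 99565417 to 99716488, is widely expressed in muscle and other tissues. It was measured at 50.3, 54.2 and 57.7 CPM in the controls and at 49.7, 53.7 and 49.98 CPM in the knockdown samples, and the groups overlapped. The log2 fold change was -0.080 with a 95% interval from -0.21 to 0.050 (edgeR quasi-likelihood, adjusted p = 0.364). Up to 792 bases of an exon of LYSMD4, on the opposite strand, overlap exons of MEF2A, and without known strand use their reads may be shared. LYSMD4 gave between 406 and 586 counts per sample, against 1430 to 1898 for MEF2A.

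MEF2C (ENSG00000081189.17), at 88717117 to 88904257 on chromosome 5 (minus strand), is the MEF2 factor of early muscle and heart. It had the lowest levels of the 7 tested genes, at 5.66, 6.60 and 5.94 CPM in controls and 5.40, 6.06 and 5.18 CPM in knockdown cells. The groups overlapped, and the log2 fold change of -0.13 had a 95% interval from -0.40 to 0.15 (edgeR quasi-likelihood, adjusted p = 0.505). With 158 to 214 counts per sample, a decrease as large as the increase of MYOG lies inside this interval, and an increase of that size lies outside it. The antisense genes MEF2C-AS1 and MEF2C-AS2 overlap its exons but had 0 and 1 counts in all.

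Levels were compared between genes as CPM per kilobase of merged exon (RPKM). In controls the order was MYOD1 at 146 ± 4.46, MYOG at 93.4 ± 4.03, MEF2D at 24.7 ± 0.372, PAX7 at 20.1 ± 0.704, MEF2A at 7.58 ± 0.518, PAX3 at 1.67 ± 0.146 and MEF2C at 0.516 ± 0.0412 RPKM (SD, n = 3). No neighbours in this order overlapped among the control samples. In the knockdown samples MEF2D, at 22.7 to 26.6 RPKM, and PAX7, at 20.3 to 23.2 RPKM, overlapped, and the order was otherwise kept with no overlap. Many exons of PAX3 and MEF2C belong to alternative transcripts, and with the longest transcript as the length their control means were 3.94 and 0.833 RPKM, which left the order as it was.

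**Figure D3:**
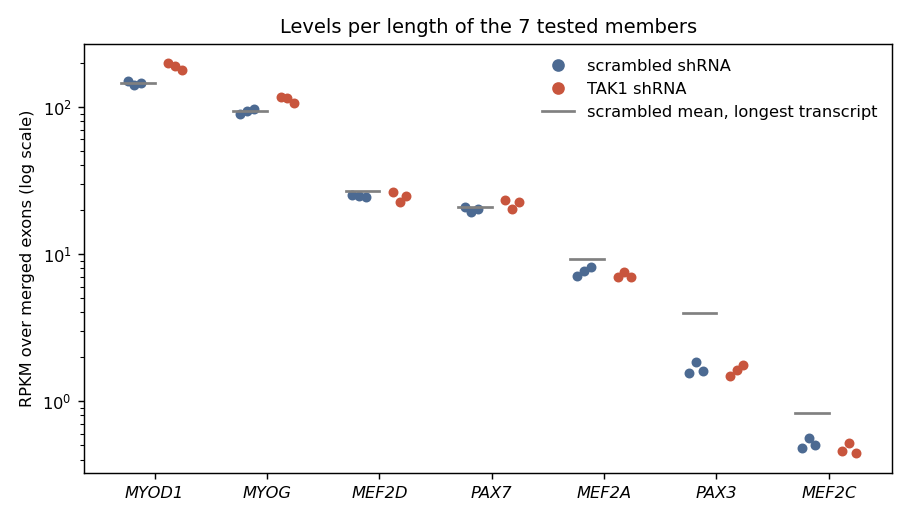
The level per length of each tested gene is plotted as RPKM on a log axis, with 1 point per sample and a grey line at the control mean obtained with the longest transcript length. MYOD1 and MYOG stand highest in both groups, and MEF2C stands lowest at 0.516 RPKM in controls.

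Within the MEF2 family, MEF2D made up 75.3% of the summed level per length in controls and 76.3% in knockdown cells, MEF2A 23.1% and 22.3%, and MEF2C 1.57% and 1.47%. The level of MEF2C was 0.0683, 0.0739 and 0.0624 times that of MEF2A in controls and 0.0660, 0.0684 and 0.0628 times in knockdown cells (exact two-sided permutation p = 0.7, adjusted p = 0.8). MEF2D lay 3.57, 3.24 and 3.02 times above MEF2A in controls and 3.81, 3.01 and 3.52 times above it in knockdown cells (exact two-sided permutation p = 0.8, adjusted p = 0.8). Both differences were smaller than the spread of the ratios between samples. The planned ratios of MYF5 and MYF6 to MYOD1 could not be formed, because those genes had too few counts.

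A further pair of ratios was chosen after the values were seen and is given without a test. PAX7 was at 0.138, 0.137 and 0.139 times the level of MYOD1 per length in controls and at 0.118, 0.108 and 0.127 times in knockdown cells. MEF2D was at 0.167, 0.174 and 0.168 times that of MYOD1 in controls and at 0.135, 0.120 and 0.138 times in knockdown cells. In both cases the groups did not overlap, and all 3 knockdown ratios were the lower ones. Each of these ratios divides a gene that was not called by MYOD1, which was upregulated. The lower ratios therefore restate the rise of MYOD1 and are no separate result.

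**Figure D4:**
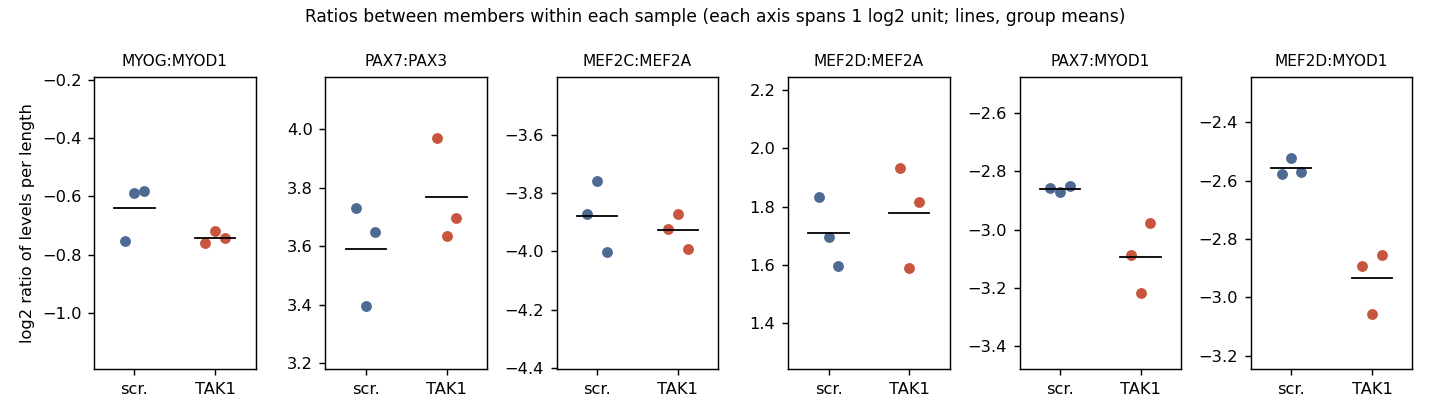
Each panel plots the log2 ratio of the levels per length of 2 genes within each sample, over an axis of 1 log2 unit, with lines at the group means. The 4 planned ratios overlap between the groups, with differences of the means from -0.10 to 0.18. The pair of ratios to MYOD1 at the right do not overlap, but they were chosen after the values were seen and restate the rise of MYOD1.

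The genes whose values over the 6 samples lay closest to those of MYOD1 and MYOG were sought among 9710 genes that averaged 10 CPM or more, by the Euclidean distance between centred log2 CPM. Closest to MYOD1 was VGLL2, at a distance of 0.048, which encodes a cofactor of TEAD factors found in skeletal muscle. VGLL2 was at 357, 342 and 336 CPM in controls and 471, 446 and 425 CPM in knockdown cells. TPCN1 and NELFA followed at 0.063 and 0.064. Closest to MYOG were LLGL1, DEF8 and NAT9, at 0.044, 0.069 and 0.074. These distances rest on 6 samples in 2 groups and are a description.

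Lists of genes that act with, above or below these factors were set beside them. Among 15 tested partners and competitors of the myogenic factors, 2 were upregulated and 5 were downregulated, 13.3% and 33.3%. The shares of all genes tested were 11.8% and 11.3%. The E proteins that pair with the myogenic factors did not move together. TCF4 fell from 163 ± 2.46 to 117 ± 3.10 CPM and TCF12 from 167 ± 4.39 to 131 ± 4.81 CPM (SD, n = 3), whereas TCF3 stood at 468 ± 20.5 and 521 ± 22.7 CPM, a log2 fold change of 0.15 that lay under the fold threshold. The inhibitor ID3, which sequesters E proteins, fell from 121 ± 3.16 to 83.9 ± 5.92 CPM (log2 fold change -0.53), and ID2 fell from a low level with a log2 fold change of -0.99. ID1 missed the threshold, at 8.01 ± 0.512 and 6.66 ± 0.439 CPM, and ID4 was not tested.

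Among the repressors of this list, HES1, a Notch target, fell with a log2 fold change of -0.69. MSC, which encodes musculin, a repressor that binds E-boxes, rose from 189, 170 and 170 CPM to 272, 237 and 243 CPM, a log2 fold change of 0.51. BHLHE40 rose with 0.37. All samples of one group lay apart from those of the other for HES1, MSC and BHLHE40, as they did for 43.9% of all genes tested.

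Of 26 tested genes known to act upstream of the myogenic factors, 4 were upregulated (NFIX at 0.49, FOXO3 at 0.42, TBX2 at 0.39 and FOXC1 at 0.28) and 3 were downregulated, shares of 15.4% and 11.5% beside 11.8% and 11.3% of all genes tested. With scaling by library size alone the counts of this list were 8 and 2. The counts of all 15935 genes tested then moved as well, from 1879 and 1805 to 2376 and 1404. NFIX takes part in the change from embryonic to fetal muscle. The downregulated genes were SOX9, which fell from 26.4 ± 0.612 to 11.1 ± 0.612 CPM (SD, n = 3), LBX1 at -0.30 and SIX2 at -0.29. LBX1 marks migrating limb muscle progenitors, and the family of SIX2 holds direct regulators of MYOG. The median of the list was 0.071, against 0.018 for all genes tested.

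Among 32 tested cofactors of MEF2 and the myogenic factors, 5 were upregulated and 2 were downregulated, 15.6% and 6.25%. The shares of all genes tested were 11.8% and 11.3%. With scaling by library size alone 10 were upregulated and 0 were downregulated, so that neither KAT2B nor NRIP1 was called. That scaling called 2376 of all 15935 genes tested upregulated and 1404 downregulated. The 5 cofactors upregulated with TMM were MAP2K5 (0.55), which activates the MEF2 kinase ERK5, HDAC9 (0.51), HDAC11 (0.39), VGLL2 (0.38) and the acetylase gene CREBBP (0.31). KAT2B, which encodes an acetylase that acts on MYOD1, fell with -0.48 from a mean of only 4.02 CPM, and the corepressor gene NRIP1 fell with -0.29. Of the class IIa deacetylases that hold MEF2 inactive, HDAC9 alone passed, at 5.84 ± 1.33 and 8.33 ± 0.510 CPM (SD, n = 3). HDAC4, HDAC5 and HDAC7 had log2 fold changes of 0.22, 0.031 and 0.099, and of these HDAC4 had an adjusted p of 0.00362 by edgeR's quasi-likelihood test.

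Of 56 tested muscle genes known as targets of these factors, 17 were upregulated and 6 were downregulated, 30.4% and 10.7%. The shares of all genes tested were 11.8% and 11.3%. Of the list, 39 were higher and 17 lower, with a median log2 fold change of 0.15 against 0.018 for all genes tested. Among genes averaging 1 CPM or more, the largest increases were those of the giant sarcomere genes TTN (1.06) and NEB (0.76), the fusion gene MYMK (0.98) and the calcium channel gene CACNA1S (0.81). The downregulated genes were CDKN1C (-1.03), ITGA7 (-0.42), CDKN1A (-0.41), CHRNA1 (-0.40), MYL4 (-0.37) and MYMX (-0.27). CDKN1C and CDKN1A encode inhibitors of the cell cycle that muscle cells use on leaving it, CHRNA1 the acetylcholine receptor alpha subunit, and MYMX the fusion protein that acts with that of MYMK.

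In the list of progenitor genes, 2 of 17 were upregulated and 5 were downregulated, 11.8% and 29.4%, beside 11.8% and 11.3% of all genes tested. MSTN, the muscle growth inhibitor, rose from 1292, 1399 and 1502 CPM to 1559, 1900 and 1863 CPM (log2 fold change 0.34), and CITED1 rose with 0.60 from 1.87 CPM. CD34 (-1.21, from only 6.01 to 2.59 CPM), SDC4 (-0.64), CXCR4 (-0.42), HMGA2 (-0.37) and SPRY1 (-0.30) fell. Called or not, 7 of the 17 genes were higher and 10 lower. CD34, SDC4 and CXCR4 are surface proteins found on muscle progenitors, and HMGA2 and SPRY1 act in their growth and quiescence. The median of the list was -0.11, against 0.018 for all genes tested. These lists were written with earlier results of the same samples known, so their counts are a description.

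**Figure D5:**
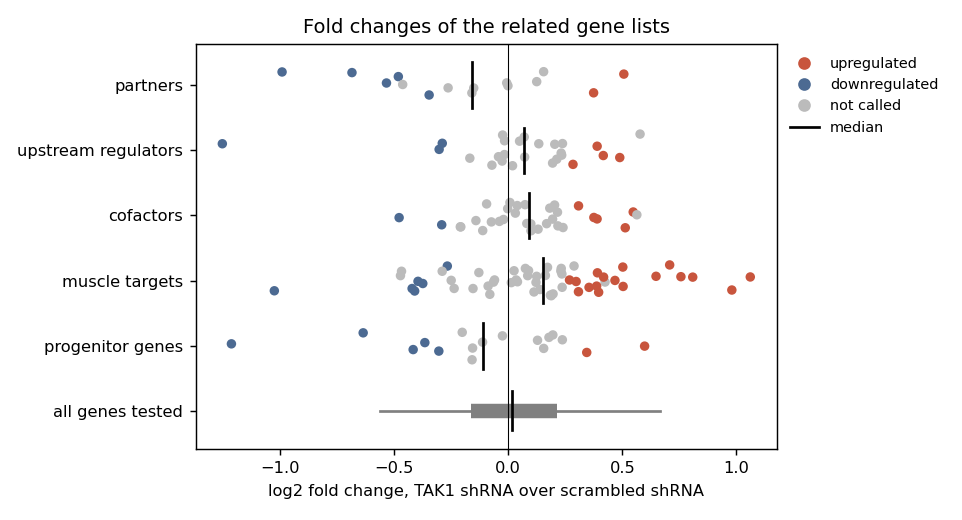
Each row plots the log2 fold changes of the tested genes of 1 list, coloured by call, with the list's median as a line; the last row gives all genes tested, with a box from the 25th to the 75th and a line from the 5th to the 95th percentile. Muscle target genes reach from -1.03 to 1.06, and the median lies at 0.15 for them, at -0.16 for the partners and at -0.11 for the progenitor genes.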

How the data were processed

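mRNA of 3 control and 3 TAK1 knockdown samples of RD cells was sequenced. By their methods and the submitters' processing notes, the authors called bases with CASAVA, removed adaptor-containing and low-quality reads, aligned the rest to GRCh38 with STAR and deposited raw counts of reads per gene; the counter, annotation and strand use are not given in the sources used here. Counts were filtered with filterByExpr, TMM-scaled and tested with edgeR 4.0.16 in R 4.3.3 over 15935 genes, which held at least 99.9% of the counts. DESeq2 1.42.0 and limma 3.58.1 were alternatives, as were other scalings, filters and fold thresholds, a replicate block and leaving out each sample. Standard errors are the log2 fold change over the square root of F. Lengths and positions came from GENCODE 44. At this depth the spread between replicates (common biological coefficient of variation 5.67%) exceeds counting error except for low counts. Named genes were the 9 members, MAP3K7, all called genes of a list with at most 6 calls in a direction and otherwise the 4 with the largest change, plus E protein, ID and class IIa HDAC genes and the 3 genes nearest to each called member. The members and lists were chosen with earlier results of these data known. The fits were also run on counts simulated with the same spread for all genes. The changes planted there were larger than those of MYOD1 and MYOG, so that run does not bear on changes of their size.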

Additional observations from a re-analysis of the deposited data

How the results depend on the processing

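MYOD1 stayed upregulated in all 14 alternative fits, with log2 fold changes from 0.34 to 0.42. MYOG kept an adjusted p under 0.05 in all of them. The number of genes upregulated among the 9 was 1 to 2 with each sample left out and 0 at a fold threshold of 0.5. At that threshold, 735 of all genes were upregulated and 680 downregulated, against 1879 and 1805 at 0.25, and 2569 were upregulated and 2734 downregulated with no fold threshold, where downward calls were the more numerous. Upregulated and downregulated genes at 0.5 numbered 1 and 3 among partners, 0 and 1 among upstream regulators, 2 and 0 among cofactors, 8 and 1 among muscle targets and 1 and 2 among progenitor genes. With library size alone, 8 upstream regulators and 10 cofactors were upregulated and 0 cofactors were downregulated. That scaling called 2376 of all genes upregulated and 1404 downregulated. PAX3 (0.0067) and MEF2D (0.043) changed sign with library size alone, and MEF2D also with upper-quartile normalization (0.012). With 1 sample left out, PAX3 ran from -0.11 to 0.032 and MEF2D from -0.062 to 0.049. With the longest transcript as length, the log2 ratio of control levels was 2.41 in place of 3.59 for PAX7 to PAX3, -3.48 in place of -3.88 for MEF2C to MEF2A and 1.52 in place of 1.71 for MEF2D to MEF2A. Neither the labels nor the methods say whether same-numbered samples were prepared together. Their deviations from the group means correlated at 0.092, 0.056 and 0.035, and those of samples with different numbers at -0.099 to 0.049. Replicate 3 of the controls correlated best with replicate 2 of the knockdown samples, and every other sample with its own number. The replicate block gave 1942 upregulated and 1848 downregulated genes and changed no call among the 9, though the adjusted p of PAX7 was 0.00958 with the block. Counts of MEF2C, and of MYF5 and MYF6 most of all, limit what could be detected.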

Other observations

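Other genes of the PAX and MEF2 families were mostly silent. Of 9 such genes, 2 were tested, PAX6 with 301 to 418 counts per sample and PAX2 with 76 to 140. Their log2 fold changes of -0.17 and 0.31 did not pass edgeR's quasi-likelihood test (adjusted p = 0.248 and 0.209). PAX1, PAX4, PAX5 and PAX8 had 0 counts in all 6 samples, and PAX9 had 9 counts over the controls and 0 over the knockdown samples. MEF2B had 13 counts over the controls and 12 over the knockdown samples. BORCS8-MEF2B, a read-through gene that shares exons with MEF2B, had 2 and 14.

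NKX2-5, a homeobox factor of the heart, was at 33.1, 32.9 and 34.7 CPM in the controls and at 34.4, 31.7 and 28.2 CPM in knockdown cells. GATA4, NPPB and MYL7, other markers of heart muscle, had 0 counts throughout.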
